A study of Rattus norvegicus with 54 samples.

Results

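Transcript levels in epididymal adipose tissue of untreated obese rats were compared with those of untreated lean rats across all genes of a rat expression array. The obese group was male Zucker rats with the genotype fatty (fa/fa), described by the submitters as insulin resistant, and the lean group was male Zucker rats with the genotype lean (fa/+). Both groups were fed normal chow with no PPARγ ligand. Each group had 3 arrays, and each array was hybridised with RNA pooled from 2 rats, so the 6 arrays stand for 12 rats. The whole series has 54 arrays, and its number of distinct rats was not established. The arrays were chosen by their labels alone. The other adipose arrays, from obese rats given pioglitazone, rosiglitazone, troglitazone or AG035029, entered the model only as further groups that share its estimate of spread. Liver and gastrocnemius muscle of the same 2 kinds of rat were used for a comparison between tissues.

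The fa allele is a mutation of the leptin receptor, which leaves fa/fa rats without an effective response to leptin, the hormone by which adipose tissue reports its fat stores, so that they overeat and become obese. Lean rats of the fa/+ genotype carry the allele too, in a single copy. White adipose tissue stores triglyceride in adipocytes and releases it as fatty acids by lipolysis. It also holds blood vessels, fibroblasts, macrophages and, in the epididymal depot, a covering of mesothelial cells. In obesity macrophages gather in this depot and take up lipid, and the nuclear receptor PPARγ is the main regulator of the adipocyte program. A whole-tissue array cannot tell fewer cells of a type from less RNA per cell.

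The tissue label was checked against defining markers. The adipocyte markers Fabp4, Cfd, Aqp7, Lipe and Plin1 were all present, and Fabp4, the fatty acid carrier of adipocytes, had a mean signal of 13074 in obese and 12121 in lean adipose tissue against 15.4 in lean liver. Signals are MAS5 intensities, which summarise the probes of a probe set on a linear scale with no unit. Summed signals of the 5 adipocyte markers were 31400 to 37467 on obese arrays, below the 37655 to 45594 on lean arrays. None of the 6 arrays stood apart: correlations of log2 levels were 0.963 to 0.977 within a group and 0.94 to 0.951 between the groups. The 3′ to 5′ signal ratio of GAPDH, a measure of RNA integrity, ran from 0.983 to 1.552, and both ends of that range were lean arrays. Lean replicates 2 and 3 held skeletal muscle transcripts, with Acta1 signals of 785 and 658 against at most 149.5 on any obese array. Lean replicate 2 also had the most smooth muscle transcript, with a summed signal of 11819 over 7 markers, against 5067 to 5379 on obese arrays. The part of these cell types in the results below was not tested. Median signals lay between 205.3 and 247.6 over the 18 adipose arrays, and 3 arrays per group limit the precision.

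Of 15866 probe sets, the 9519 with the higher mean levels were tested, and 573 of them (6.02%) differed at a limma adjusted p under 0.05. In obese tissue 301 probe sets (3.16%) were higher and 272 (2.86%) were lower. These calls covered 247 genes that were higher and 232 that were lower, and 70 called probe sets had no single gene symbol. Changes are obese minus lean on the scale log2(signal + 20), given with a standard error from the model, and n is 3 arrays per group throughout. A change over 1 in size was seen in 83 of the higher and 57 of the lower probe sets. The obese and lean arrays did not overlap in 569 of the 573 called probe sets, against 2656 (27.9%) of all tested. The median change over all tested probe sets was -0.02. Counts called in the gene lists below are to be read beside the 6.02% called of all tested. That share is over probe sets, while a list holds 1 probe set per gene, its brightest, so the shares are not like for like. The insulin signalling, lymphocyte, Wnt, clock and endoplasmic reticulum lists had shares near this 6.02%. So did the lists of collagens and matrix, fatty acid oxidation, peroxisomal, glycogen, xenobiotic, oxidative stress and JAK-STAT genes. Nothing says whether the rats of different pools shared a litter or day. The p-values set each change against the spread between pools within a group. That spread was estimated over all 18 adipose arrays, including those from ligand-treated rats. Where other settings or a left-out array ended a call, the number of such alternatives is given in brackets.

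**Figure D1:**
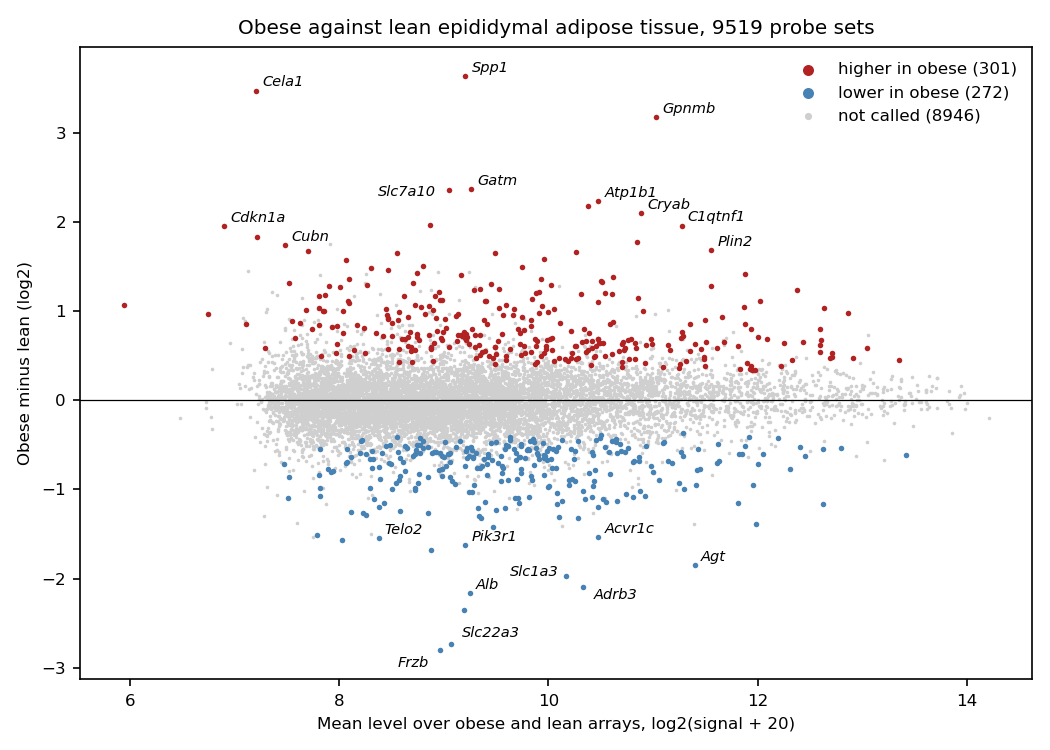
Each of the 9519 tested probe sets is a point, with its mean level over the obese and lean arrays on the x axis and its obese minus lean change on the y axis, both on the log2(signal + 20) scale. The 301 called higher are red, the 272 called lower are blue, and the labelled genes are the most changed among those with a single symbol.

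The 15 largest rises included, beside macrophage, creatine and transport genes described below, a heat shock protein, secreted regulators and a receptor. Cryab, the small heat shock protein alpha-B crystallin, had signals of 4159, 3462 and 4112 in obese rats, against 783, 855 and 1072 in lean rats. All obese arrays were above all lean arrays, by a log2 change of 2.10 ± 0.24 (adjusted p = 3.54e-05). C1qtnf1, a secreted relative of adiponectin, reached 4997, 4453 and 5144 in obese rats, against 1606, 1005 and 1166 in lean rats, which is a log2 change of 1.96 ± 0.21 (adjusted p = 2.56e-05). The second C1qtnf1 probe set rose as well, by 1.77 ± 0.18. Angptl8, a secreted regulator of lipoprotein lipase, had signals of 2126, 1891 and 2495 in obese rats, against 747, 658 and 614 in lean rats. Its log2 change was 1.66 ± 0.30 (adjusted p = 0.00271), again without overlap between the groups. Cubn, an endocytic receptor, was at 422, 337 and 202 in obese rats, against 79.5, 56.4 and 105 in lean rats, with a log2 change of 1.74 ± 0.38 (adjusted p = 0.0092). Its lean signals were low, so its fold is less certain than those of the brighter genes.

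The 3 smallest p-values of all tested probe sets belonged to falls, of both probe sets of Frzb, a secreted Wnt antagonist, and of Slc22a3, an organic cation transporter. Frzb signals were 143, 195 and 172 in obese rats, against 1572, 1189.9 and 1167 in lean rats, a log2 change of -2.81 ± 0.18 (adjusted p = 6.72e-08), and every lean array was far brighter than any obese array. Slc22a3 was at 148, 206 and 220 in obese rats, against 1388, 1289 and 1426 in lean rats, with a log2 change of -2.73 ± 0.20 (adjusted p = 3.04e-07). Telo2, a partner of the kinases that sense DNA damage, had 194, 178 and 155 in obese rats, against 678, 577 and 418 in lean rats. It fell by 1.54 ± 0.18 (adjusted p = 3.54e-05). Rasgef1b, an activator of Ras-family proteins, was at 628, 355 and 313 in obese rats, against 1565, 980.2 and 964 in lean rats, a log2 change of -1.42 ± 0.29 (adjusted p = 0.00631), while its dimmer second probe set was at -0.38 and not called. Fam117a and Rab3b, a small GTPase of secretory vesicles, had changes of -1.32 ± 0.18 and -1.30 ± 0.20. Hrh3, a histamine receptor, was at 117, 105 and 111 in obese rats, against 339, 416 and 311 in lean rats. Its change was -1.51 ± 0.39 (adjusted p = 0.0277, call lost in 7 of 15 alternatives).

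**Figure D2:**
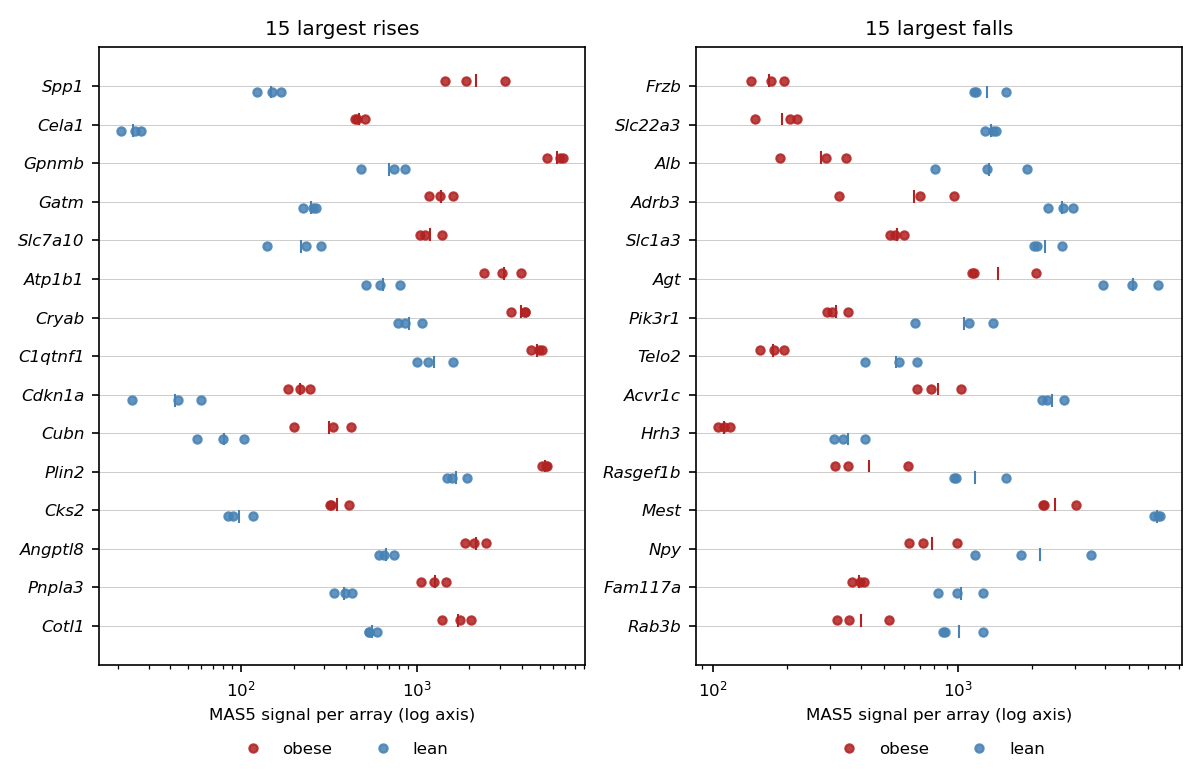
MAS5 signals on each array, on a log axis, for the 15 genes with the largest called rises and the 15 with the largest called falls, with obese arrays in red above lean arrays in blue and short bars at the group means. In all 30 genes the groups do not overlap, which the rule for choosing them required.

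Adipocyte markers were called in both directions. Of 15 tested adipocyte markers 2 rose and 5 fell, or 3 fell without lean replicate 1, and their median change was -0.26. Lep, which encodes leptin, had 6671, 5518 and 6268 in obese rats, against 2455, 2054 and 2354 in lean rats. It rose by 1.42 ± 0.32 (adjusted p = 0.0122), and every obese array was brighter than any lean array. Pparg was at 1427, 1297 and 1244 in obese rats, against 2927, 2979 and 2522 in lean rats and fell by 1.07 ± 0.15 (adjusted p = 0.000273). Adrb3, the beta-3 adrenergic receptor that starts lipolysis, had 327, 697 and 964 in obese rats, against 2329.8, 2681 and 2952 in lean rats. The obese arrays differed widely among themselves, and the change was -2.09 ± 0.43 (adjusted p = 0.00625). Acvr1c, an activin receptor of adipocytes also called ALK7, was at 679, 777 and 1034 in obese rats, against 2724, 2315 and 2214 in lean rats, a log2 change of -1.54 ± 0.21 (adjusted p = 0.000261). Cfd, the adipocyte protease adipsin, fell by 0.61 ± 0.13 (adjusted p = 0.0092, call lost in 1 of 16 alternatives). Cebpa, a partner of PPARγ in adipocyte differentiation, had 693, 519 and 692 in obese rats, against 1047, 940.2 and 767 in lean rats and was not called, at -0.52 ± 0.20 (adjusted p = 0.127).

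Of 16 tested adipokines and secreted hormones 1 rose and 4 fell, and 1 fell without obese replicate 2 or without lean replicate 1. Agt, the precursor of angiotensin, was at 2092, 1158 and 1137 in obese rats, against 6569, 5150.3 and 3917 in lean rats, a log2 change of -1.85 ± 0.41 (adjusted p = 0.0106, call lost in 3 of 16 alternatives). Npy, neuropeptide Y, had 632, 719 and 991 in obese rats, against 1176, 1806 and 3482 in lean rats. The lean arrays spread widely, and the change was -1.32 ± 0.35 (adjusted p = 0.031, call lost in 5 of 16 alternatives). Vegfa, the main growth factor for vessels, fell by 0.55 ± 0.14 (adjusted p = 0.0279, call lost in 5 of 16 alternatives), and its second probe set was not called at -0.38.

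PPARγ target genes were also called in both directions: 7 of 24 tested rose and 3 fell, with a median of 0.07. Without obese replicate 2, 4 rose and 0 fell, and without lean replicate 1, 0 fell. Cyp4b1, a cytochrome P450, was the most changed of those that rose, at 2466, 2523 and 3309.6 in obese rats, against 1227, 1237 and 1213 in lean rats, with a log2 change of 1.15 ± 0.16 (adjusted p = 0.000261). Cidea, a droplet protein that helps droplets grow, was at 4518, 4215 and 4686 in obese rats, against 2409, 2386 and 2182 in lean rats and rose by 0.94 ± 0.12 (adjusted p = 0.000163). Me1, which makes NADPH for lipid synthesis, rose by 1.11 ± 0.19 (adjusted p = 0.00188), and Ucp3, a mitochondrial carrier, by 0.96 ± 0.22 (adjusted p = 0.0127, call lost in 3 of 16 alternatives). Agpat2, an enzyme of triglyceride synthesis, was at 2136, 1724 and 1972 in obese rats, against 4151, 4407 and 2894 in lean rats. It fell by 0.95 ± 0.21 (adjusted p = 0.0115, call lost in 3 of 16 alternatives). Fabp4, Slc2a4 and Pck1, also classed as PPARγ targets, had changes of 0.10 ± 0.17, -0.22 ± 0.19 and -0.19 ± 0.16 with overlapping groups, and none was called.

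Called genes of fatty acid synthesis were higher, apart from the regulator Srebf1. Of 19 tested genes of fatty acid synthesis 6 rose and 1 fell, with a median of 0.28. Elovl6, which lengthens palmitate, had 1286, 1693 and 1324 in obese rats, against 547, 601 and 364 in lean rats, a log2 change of 1.49 ± 0.29 (adjusted p = 0.00403). Scd2, a desaturase, was at 837, 794 and 589.7 in obese rats, against 204, 310 and 229.9 in lean rats and rose by 1.51 ± 0.32 (adjusted p = 0.00823), while its second probe set was not called at 0.39. Acly, which makes cytosolic acetyl-CoA, and Pgd, of the pentose phosphate pathway, rose by 0.68 ± 0.16 (adjusted p = 0.0157, call lost in 3 of 16 alternatives) and by 0.65 ± 0.13 (adjusted p = 0.00446). Other genes of the pathway were not called. Fasn, fatty acid synthase, was at 13031, 11492 and 12784 in obese rats, against 10825, 11471 and 9039 in lean rats, a change of 0.26 ± 0.17 (adjusted p = 0.42). Its second probe set was at 0.41 ± 0.16, without overlap between the groups but not called (limma adjusted p = 0.148). Acaca and Scd were at 0.28 ± 0.16 and 0.16 ± 0.14, also not called. Srebf1, the transcription factor that drives these genes in response to insulin, had 2186, 1378 and 1809 in obese rats, against 3359.8, 3477 and 3777 in lean rats. It fell by 1.0 ± 0.24 (adjusted p = 0.02, call lost in 4 of 16 alternatives), and its second probe set fell by 0.53 on the log2 scale.

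Cholesterol synthesis and sterol-responsive genes had the highest median of the lists of lipid genes, 0.47, with 5 of 17 tested rising and 0 falling by limma; at an unadjusted p under 0.05, 9 were higher and 0 lower. Cyp51, which demethylates lanosterol, had 756, 861 and 1178 in obese rats, against 380.5, 383 and 253 in lean rats, a log2 change of 1.41 ± 0.21 (adjusted p = 0.000483). Its second, dimmer probe set was at 0.41 and not called. Dhcr7, which carries out the last step to cholesterol, was at 1254, 1645 and 2004 in obese rats, against 656, 582 and 707 in lean rats and rose by 1.29 ± 0.22 (adjusted p = 0.00151). Fdps, which makes farnesyl diphosphate, reached 1194, 1265 and 1579 in obese rats, against 576, 786 and 474 in lean rats, a change of 1.13 ± 0.24 (adjusted p = 0.00776). Insig1, which holds back the activation of sterol regulatory proteins when sterols are plentiful, rose by 0.62 ± 0.13 (adjusted p = 0.00706). Nsdhl, a later enzyme of the pathway, rose by 0.83 ± 0.18 (adjusted p = 0.00846, call lost in 1 of 16 alternatives). Lss and Fdft1 were at 0.70 ± 0.23 and 0.63 ± 0.19 without reaching the threshold (adjusted p = 0.0832 and 0.0605). With an array left out in turn, 4 or 5 of the list were called higher.

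Promoters of these genes are known to hold an inverted CCAAT box, bound by the factor NF-Y beside sterol response elements. The letters ATTGG, searched on both strands in the 250 bases before the transcript start of RefSeq (GRCr8), occurred in 12 of the 15 list genes with a promoter sequence (80%) and in 34.0% of all 33469 promoters. The core TCACNCCAC of the sterol response element, searched likewise, was in 0 of the 15, and in 0.974% of all promoters. In both searches a list gene was counted if any of its promoter sequences matched. The share of all counts each promoter singly, so the shares are not like for like. A stretch is shown for each called gene with a match, 5′ to 3′ on the gene's strand, with the matched letters in capitals. The Fdps stretch is at chr2:176804922-176804966 (minus strand), 130 bases before the start. Those of Insig1 and Nsdhl are at chr4:8057938-8057982 (minus strand) and chrX:155817132-155817176 (plus strand), 193 and 208 bases before it. Fdps has another match at 85 bases, and Nsdhl has others at 128, 119, 91 and 65 bases, all nearer the start than those shown.
Fdps: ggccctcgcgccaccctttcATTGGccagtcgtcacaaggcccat
Insig1: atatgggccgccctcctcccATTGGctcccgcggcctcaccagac
Nsdhl: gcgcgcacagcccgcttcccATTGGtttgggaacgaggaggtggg
The matches are descriptions of letters and say nothing of binding in this tissue.

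Droplet and triglyceride genes moved in both directions. Plin2, the droplet coat protein found in most lipid-loaded cells, had 5419.7, 5152 and 5542 in obese rats, against 1934, 1600.3 and 1486 in lean rats. It rose by 1.68 ± 0.16 (adjusted p = 5.14e-06), with the groups far apart, and its second probe set rose by 1.19. Plin4, a droplet protein of adipocytes, fell by 0.53 ± 0.14 (adjusted p = 0.0333, call lost in 6 of 16 alternatives), and Plin1, the main adipocyte coat protein, had 999.7, 1018 and 872 in obese rats, against 983, 1118 and 1461 in lean rats and was not called. Mest, a marker of adipocyte expansion in mice, was at 2229.5, 2252 and 3029 in obese rats, against 6349, 6686 and 6540.3 in lean rats, a log2 change of -1.39 ± 0.19 (adjusted p = 0.000261). In all, 2 of 14 droplet genes rose and 2 fell. In glycerol supply and triglyceride synthesis 2 of 13 rose and 2 fell: Agpat3 rose by 0.98 ± 0.18 (adjusted p = 0.00264), Gpd1 rose by 0.45 ± 0.11 (adjusted p = 0.0222, call lost in 6 of 16 alternatives, second probe set at 0.35 and not called), Agpat2 fell as given above, and Dgat1 fell by 0.49 ± 0.13 (adjusted p = 0.0324, call lost in 7 of 16 alternatives). Pnpla3, a lipid-regulated acyl hydrolase, was at 1060.5, 1259 and 1478 in obese rats, against 393, 338 and 428 in lean rats, a log2 change of 1.66 ± 0.36 (adjusted p = 0.00942).

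In lipolysis and its hormonal control, 1 of 24 genes rose and 4 fell, with a median of -0.1. The gene that rose was Mgll, which splits the last fatty acid from glycerol, at 10792, 9710.3 and 10768 in obese rats, against 5591, 5566 and 4741 in lean rats. Its log2 change was 0.98 ± 0.12 (adjusted p = 8.95e-05), and its other bright probe sets rose by 1.04 and 1.28. The falls were Adrb3 and Acvr1c, given above, the adenylyl cyclase Adcy6 at -0.74 ± 0.14 (adjusted p = 0.00297, with a second probe set at -0.49 and not called), and Lipe, the hormone-sensitive lipase, at -0.54 ± 0.13 (adjusted p = 0.0149, call lost in 3 of 16 alternatives). Lipe signals were 6298, 5656 and 5734 in obese rats, against 9781, 7955 and 8117 in lean rats. Pnpla2, the lipase of the first step, had 6471, 6605 and 7787 in obese rats, against 9877, 7909.5 and 7362 in lean rats and was not called.

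**Figure D3:**
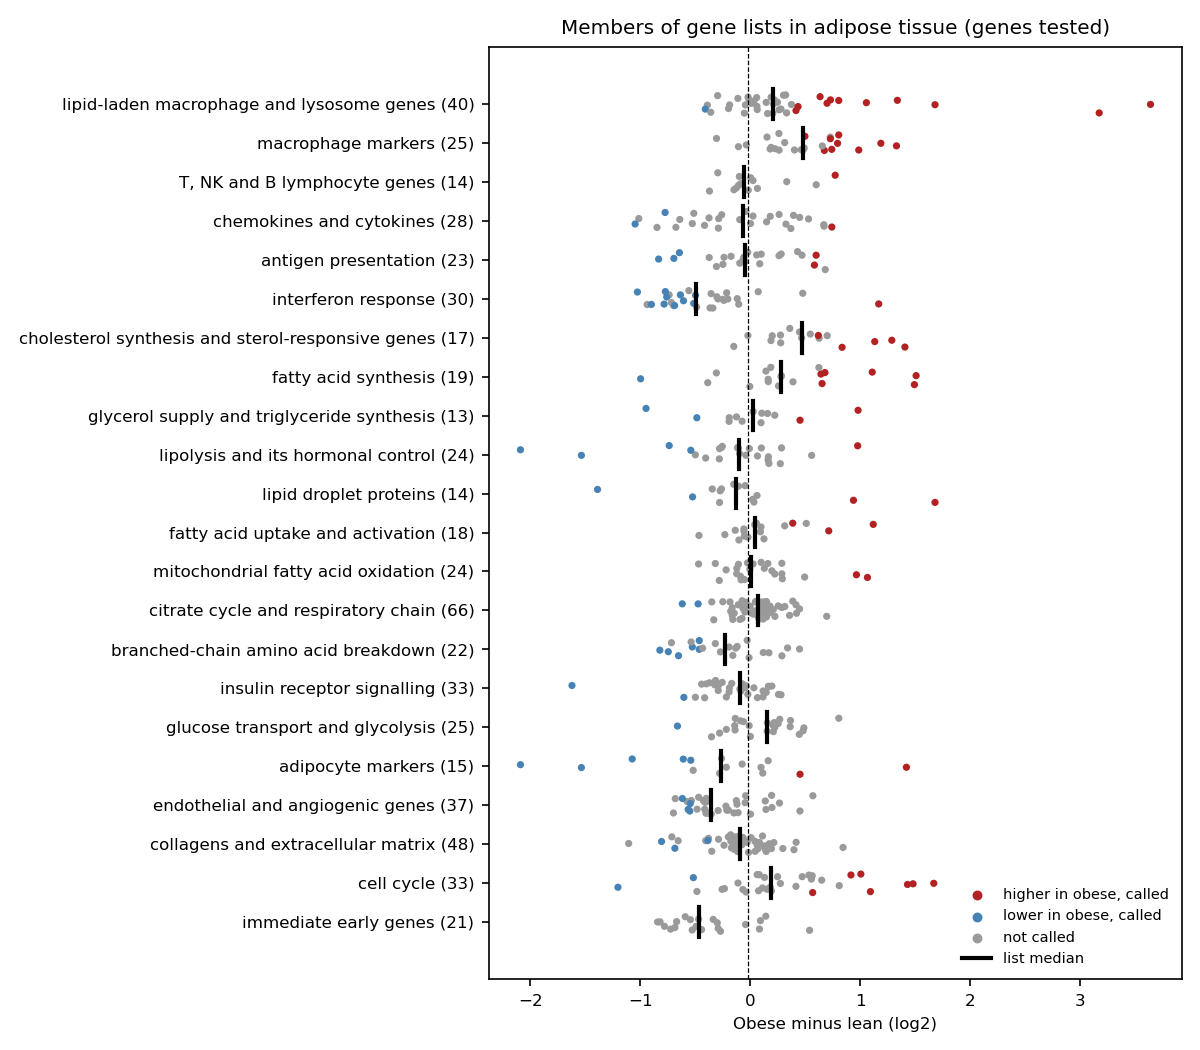
Obese minus lean changes on the log2 scale for the tested members of 22 gene lists, each gene a point (red higher, blue lower, grey not called), with the list median as a black bar and the median of all probe sets as a dashed line; the number of genes tested is in brackets. Macrophage and cholesterol lists lie mostly to the right, and interferon, endothelial and immediate early gene lists mostly to the left.

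Among mitochondrial genes, 2 of 24 genes of fatty acid oxidation rose and 0 fell, and 0 of 66 genes of the citrate cycle and respiratory chain rose while 2 fell (limma; at an unadjusted p under 0.05, 3 higher and 1 lower, then 4 and 4). The genes of fatty acid oxidation that rose were Ucp3, the mitochondrial carrier given above, and Bdh1, which converts ketone bodies and was dim in both groups. The medians, 0.01 and 0.07, lay near that of all probe sets, and the shares called lay on either side of the 6.02% of all tested. The fallers were Idh2, a mitochondrial isocitrate dehydrogenase, at 1079.9, 1150.5 and 1041 in obese rats, against 1668, 1663 and 1722 in lean rats, with a change of -0.62 ± 0.15 (adjusted p = 0.0155, call lost in 2 of 16 alternatives), and Suclg2 at -0.47 ± 0.12 (adjusted p = 0.0223, call lost in 5 of 16 alternatives). In the breakdown of branched-chain amino acids, which adipose tissue shares with muscle and liver, 6 of 22 genes fell and 0 rose (unadjusted, 9 and 1), with a median of -0.23. Pccb, a subunit of propionyl-CoA carboxylase, had 1317, 1061 and 1054 in obese rats, against 2312, 2114 and 1706 in lean rats and fell by 0.82 ± 0.12 (adjusted p = 0.000483). Bcat2, which removes the amino group, was at 474, 478 and 526 in obese rats, against 674, 736 and 748 in lean rats, a change of -0.53 ± 0.11 (adjusted p = 0.00592). Subunits of the next enzyme, Bckdha and Bckdhb, fell by 0.75 ± 0.18 (adjusted p = 0.0202, call lost in 4 of 16 alternatives) and by 0.46 ± 0.13 (adjusted p = 0.0397, call lost in 9 of 16 alternatives). Ivd, which acts on the leucine branch, fell by 0.65 ± 0.15 (adjusted p = 0.0149, call lost in 3 of 16 alternatives). Bckdk, the kinase that inhibits the same enzyme complex, fell too, by 0.46 ± 0.13 (adjusted p = 0.0342, call lost in 7 of 16 alternatives). Between 2 and 4 of the list were called lower when an array was left out, the lowest count without obese replicate 2.

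Insulin signalling genes included 2 of 33 that fell and 0 that rose by limma (unadjusted, 6 and 0), a share called near the 6.02% of all tested. Without obese replicate 1, without obese replicate 2 or without lean replicate 2, 0 were called lower. Pik3r1, the regulatory subunit of phosphoinositide 3-kinase, was at 292, 304 and 356 in obese rats, against 1397, 1114 and 670.2 in lean rats. The lean arrays spread widely, and the change was -1.62 ± 0.42 (adjusted p = 0.0271, call lost in 6 of 16 alternatives). Insr, the insulin receptor, had 178, 248 and 268 in obese rats, against 319.8, 362 and 392 in lean rats, a change of -0.60 ± 0.17 (adjusted p = 0.0355, call lost in 6 of 15 alternatives). Slc2a4, the insulin-regulated glucose transporter GLUT4, was at 1707, 1374 and 1564 in obese rats, against 1808, 2056 and 1562 in lean rats and was not called. In glucose transport and glycolysis 1 of 25 genes was called, Pfkfb1, which sets the level of a glycolytic activator, at -0.66 ± 0.15 (adjusted p = 0.0115, call lost in 1 of 16 alternatives).

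Called macrophage markers were all higher in obese tissue. Of 25 tested macrophage markers 9 rose and 0 fell by limma (unadjusted, 15 and 0), with a median of 0.48, and of 40 genes of lipid-laden macrophages and lysosomes 11 rose and 1 fell, with a median of 0.21. Spp1, osteopontin, and Gpnmb, a lysosomal membrane glycoprotein of lipid-loaded macrophages, led the second list. Spp1 had 3174, 1906 and 1446 in obese rats, against 169, 124 and 151 in lean rats, a log2 change of 3.64 ± 0.68 (adjusted p = 0.00311). Gpnmb was at 5483, 6570.4 and 6805 in obese rats, against 744, 484 and 858 in lean rats, a change of 3.17 ± 0.29 (adjusted p = 4.28e-06). In both genes the groups were far apart. Cd68, a lysosomal glycoprotein of macrophages, had 2233, 2222 and 2417 in obese rats, against 970.2, 887 and 845 in lean rats. Its change was 1.33 ± 0.16 (adjusted p = 9.37e-05), and Laptm5, a lysosomal protein of blood cells, rose by 1.19 ± 0.18 (adjusted p = 0.000486). Tyrobp and Fcer1g, adaptors of activating receptors on myeloid cells, rose by 0.74 ± 0.15 (adjusted p = 0.00547) and by 0.79 ± 0.13 (adjusted p = 0.00137).

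Lysosomal enzymes and a pump subunit were among the genes that rose, while another pump subunit, Atp6v0d1, was not called. The gene of the list that fell, Ctsh, is also a lysosomal protease, with 3174, 3492 and 3358 in obese rats, against 4091.5, 4638 and 4616.5 in lean rats, a change of -0.41 ± 0.11 (adjusted p = 0.0349, call lost in 6 of 16 alternatives). Ctsz, a cathepsin, was at 2306, 2025 and 2556 in obese rats, against 1011, 905 and 778 in lean rats, a change of 1.34 ± 0.20 (adjusted p = 0.000494). Lipa, the acid lipase that frees fatty acids and cholesterol from engulfed lipid, had 1056, 1652 and 1562 in obese rats, against 672, 582 and 742 in lean rats and rose by 1.06 ± 0.22 (adjusted p = 0.00704). Atp6v1a, a subunit of the proton pump that acidifies lysosomes, was at 2042, 2069 and 2045 in obese rats, against 1393, 1256 and 1300.2 in lean rats, with a smaller change of 0.63 ± 0.10 (adjusted p = 0.000499) and little spread. Lgmn, another lysosomal protease, rose by 0.70 ± 0.14 (adjusted p = 0.00609). Some general macrophage markers were not called: Csf1r, the receptor of the macrophage growth factor, had 2473, 2572 and 2577 in obese rats, against 2154, 1647 and 1990 in lean rats, a change of 0.40 ± 0.15 (adjusted p = 0.13), and Itgam was at 479.7, 333 and 256 in obese rats, against 291, 213 and 238 in lean rats with overlapping groups. Cd14, a receptor for bacterial lipopolysaccharide, lay the other way without a call, at 1617, 1934.5 and 1582 in obese rats, against 2016, 2467 and 1898 in lean rats. Of the 25 markers 22 had a positive and 3 a negative change. Summed signals of the 5 macrophage cell markers on the array were 9161 to 9356 in obese tissue, against 5998 to 6486 in lean tissue. With an array left out in turn, 6 to 10 of the macrophage markers and 8 to 12 of the lysosome list were called higher.

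In the list of cytoskeleton and actin regulation 9 of 56 genes rose and 1 fell, and 4 rose without obese replicate 1 or without lean replicate 3. Cotl1, an actin-binding protein, had 2028, 1388 and 1772 in obese rats, against 596, 535 and 537 in lean rats, a change of 1.59 ± 0.21 (adjusted p = 0.000202). Lcp1, L-plastin, was at 2367, 1948 and 2431 in obese rats, against 1017, 953 and 921 in lean rats, a change of 1.20 ± 0.15 (adjusted p = 0.000136), and S100a4, a calcium-binding protein, rose by 1.05 ± 0.21 (adjusted p = 0.00584). Coro1a, of leukocytes including T cells, rose by 0.77 ± 0.18 (adjusted p = 0.0137, call lost in 2 of 15 alternatives), and was the only 1 of 14 tested lymphocyte genes that was called higher; 0 were called lower (unadjusted, 2 and 1). Of the T cell receptor transcripts, Cd3d and Cd3e were too dim to be tested, with mean signals of 31.3 and 39.3 in obese and 42.2 and 39.8 in lean tissue, and Cd3g was not called, at 192, 199 and 154 in obese rats and 181, 170.4 and 191 in lean rats. Of 28 tested chemokines and cytokines 1 was called higher and 2 lower. Tgfb1 rose by 0.74 ± 0.15 (adjusted p = 0.00706), Cxcl9, which attracts T cells, fell by 0.77 ± 0.18 (adjusted p = 0.015, call lost in 2 of 16 alternatives), and Il33, an alarm cytokine of stromal cells, had 1406, 1299 and 883 in obese rats, against 2305, 2618 and 2425 in lean rats. The fall of Il33 was -1.05 ± 0.20 (adjusted p = 0.0043), with its second probe set at -0.32 and not called. Ccl2 and Il1b, often studied in obese fat, had changes of 0.37 ± 0.32 and -0.64 ± 0.25, with overlapping groups and no call.

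Called interferon response genes, with 1 exception, were lower in obese tissue. Of 30 tested, 10 fell and 1 rose, and their median was -0.49. Gbp2, a guanylate-binding protein, had 495, 476 and 468 in obese rats, against 769, 797 and 706 in lean rats, a log2 change of -0.64 ± 0.15 (adjusted p = 0.0149, call lost in 2 of 16 alternatives). Parp9 was at 698, 672 and 544 in obese rats, against 1149, 1168 and 986 in lean rats and fell by 0.77 ± 0.14 (adjusted p = 0.00285). Irf9 and Stat2, which form the complex that turns on interferon genes, fell by 0.61 ± 0.12 (adjusted p = 0.00451) and by 0.50 ± 0.12 (adjusted p = 0.0214, call lost in 4 of 16 alternatives), and a dimmer Stat2 probe set at -1.38 was not called. The antiviral genes Mx1, Oas1a and Rsad2 also fell, and so did the deconjugating enzyme Usp18, by 0.76 ± 0.22 (adjusted p = 0.0485, call lost in 8 of 16 alternatives). Rsad2, viperin, was at 262, 459 and 546 in obese rats, against 695, 913 and 948 in lean rats, a change of -1.03 ± 0.29 (adjusted p = 0.0433, call lost in 8 of 16 alternatives). Mx1 had 342, 275 and 184 in obese rats, against 456, 546 and 505 in lean rats, a change of -0.90 ± 0.25 (adjusted p = 0.0377, call lost in 7 of 16 alternatives). Oas1a, one of several near-identical rat genes that its probes may not tell apart, fell by 0.78 ± 0.21 (adjusted p = 0.0318, call lost in 5 of 16 alternatives). The gene that rose was Irf8, a transcription factor of monocytes and macrophages, at 469.5, 638 and 620.4 in obese rats, against 264, 233 and 233 in lean rats, with a change of 1.17 ± 0.17 (adjusted p = 0.000483). Irf7, the main amplifier of the response, had 2127, 1177 and 915 in obese rats, against 2535, 3304 and 1971 in lean rats and was not called. The count of falls depended on single arrays: it was 3 without obese replicate 3 or without lean replicate 2, and 9 without obese replicate 1.

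Called genes of antigen presentation differed by class. RT1-DMa and RT1-DMb, which load peptides on class II molecules, rose by 0.60 ± 0.16 (adjusted p = 0.034, call lost in 7 of 16 alternatives) and by 0.58 ± 0.12 (adjusted p = 0.00706). Tap1, the peptide transporter for class I molecules, had 225, 115 and 122 in obese rats, against 236, 305 and 299 in lean rats and fell by 0.83 ± 0.21 (adjusted p = 0.0241, call lost in 5 of 15 alternatives). The class I genes RT1-CE5 and RT1-S3, members of a family whose sequences are alike enough for probes to be shared, fell by 0.64 ± 0.17 (adjusted p = 0.0263, call lost in 4 of 15 alternatives) and by 0.70 ± 0.19 (adjusted p = 0.0325, call lost in 6 of 16 alternatives). Of the other RT1-S3 probe sets, those at -0.81 and -0.88 were called lower, and that at -0.78 was not (limma adjusted p = 0.00503, 0.0322 and 0.0502). Without obese replicate 3 or without lean replicate 3, 0 of the list were called lower. The rest of the 23 tested, 18 genes, were not called.

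Promoters of interferon genes are known for the interferon-stimulated response element, whose core is GAAANNGAA. Searched on both strands of the same 250 bases, it was in 13 of the 24 list genes with a promoter sequence (54.2%) and in 8.12% of all 33469 promoters. As before, a list gene was counted if any of its promoter sequences matched, while the share of all is per promoter. Of the 9 genes that fell and had a promoter sequence, 4 held the core. That is a smaller share than in the whole list. Their stretches are shown as the promoters of genes that fell, on the gene's strand with the matched letters in capitals; in Gbp2 and Rsad2 the match is on the opposite strand, so its complement is seen. They are at chr2:234005677-234005725 (plus strand) for Gbp2, chr12:41330405-41330453 (plus) for Oas1a, chr11:78408038-78408086 (plus) for Parp14 and chr6:48788238-48788286 (minus) for Rsad2. The matches begin 30, 41, 76 and 146 bases before the transcript start, and Oas1a has a second match that overlaps the one shown.
Gbp2: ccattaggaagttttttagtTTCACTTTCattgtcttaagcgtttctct
Oas1a: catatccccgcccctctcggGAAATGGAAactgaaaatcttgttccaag
Parp14: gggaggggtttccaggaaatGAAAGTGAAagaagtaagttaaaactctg
Rsad2: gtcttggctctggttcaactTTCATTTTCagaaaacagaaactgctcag
Of these, Parp14 fell by 0.51 ± 0.13 (adjusted p = 0.0281, call lost in 5 of 16 alternatives), and the values of the other 3 are given above.

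**Figure D4:**
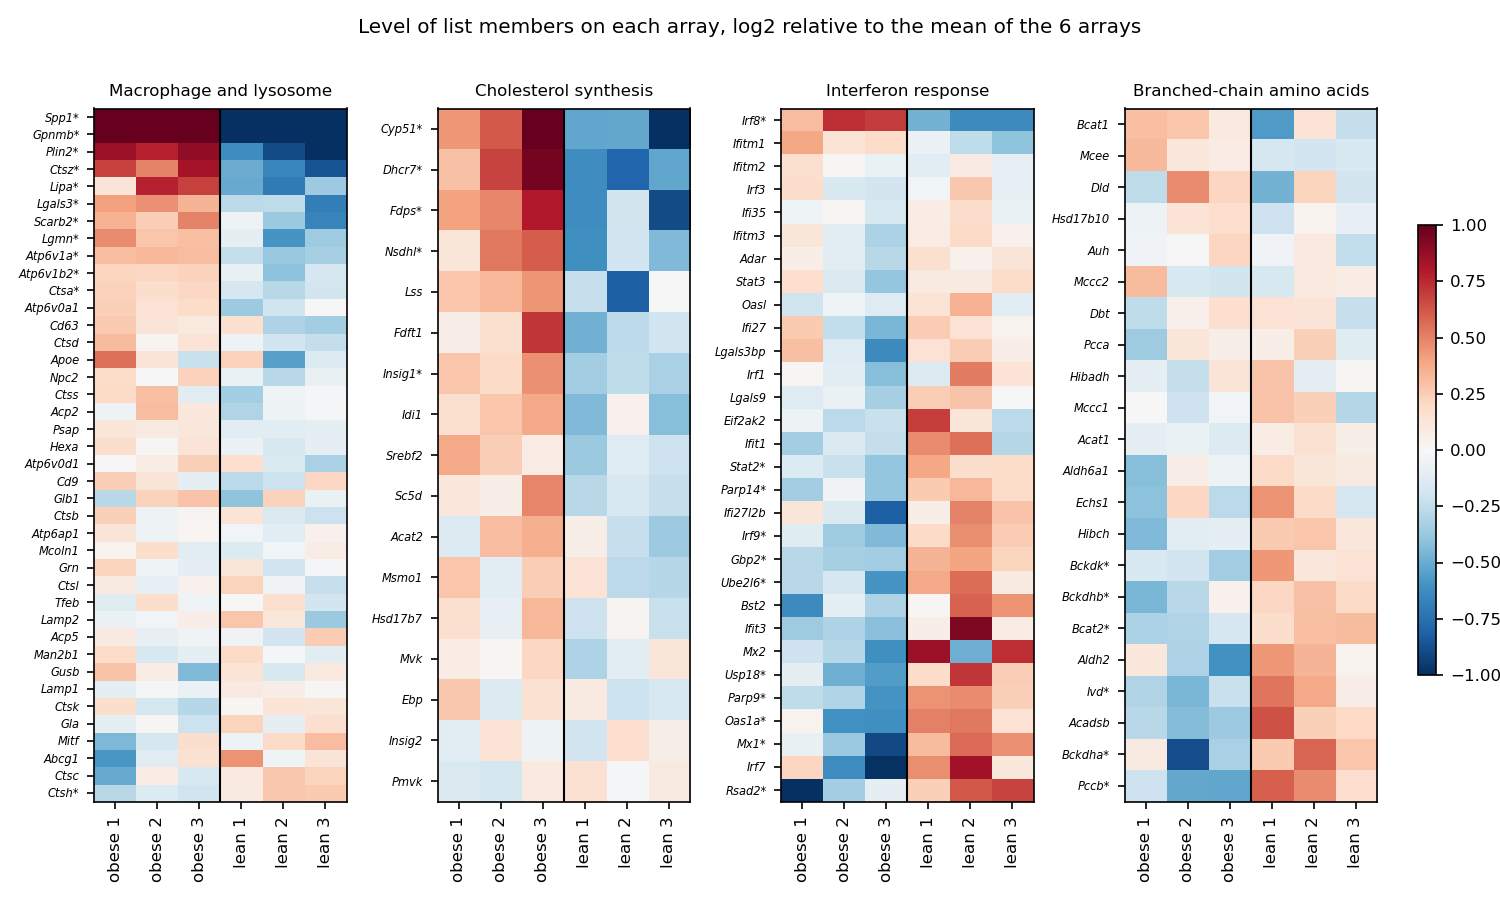
Level on each array, as log2(signal + 20) relative to the mean of the 6 arrays, for the tested members of 4 lists, with obese arrays left of lean arrays, colour limited to 1 in each direction and an asterisk on called genes. Called macrophage, lysosome and cholesterol genes, apart from Ctsh, are red on the obese side, and interferon and branched-chain amino acid genes are mostly blue there, with obese replicate 1 paler than the other obese arrays for several interferon genes.

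Called matrix structural and vessel genes were lower, and called genes of matrix remodelling were higher. Of 48 collagen and matrix genes 0 rose and 3 fell (limma; unadjusted, 2 and 5; 0 lower without obese replicate 2 or without lean replicate 1), a share called near that of all probe sets. The 3 were laminin chains of the basement membrane that surrounds adipocytes and vessels. Lama4 had 1552, 1401 and 1651 in obese rats, against 3335, 2671 and 2194 in lean rats, a change of -0.81 ± 0.18 (adjusted p = 0.0107, call lost in 2 of 16 alternatives). Lamb1 and Lamb2 fell by 0.69 ± 0.18 (adjusted p = 0.0324, call lost in 7 of 16 alternatives) and by 0.39 ± 0.11 (adjusted p = 0.0427, call lost in 9 of 16 alternatives). The fibrillar collagens were not called, with Col1a1 at 10558, 9044 and 9178 in obese rats and 11067, 10387 and 8764 in lean rats. Of the enzymes and inhibitors of matrix remodelling, 3 of 27 rose and 0 fell by limma (unadjusted, 5 and 2). The 3 were the elastase Cela1, the crosslinking enzyme Lox and the inhibitor Timp1. Cela1 had 509, 447 and 462 in obese rats, against 21, 25.1 and 27.1 in lean rats, a change of 3.47 ± 0.33 (adjusted p = 6.04e-06). Its lean signals were near the value of 20 added before the log, so this change understates the ratio of signals. Lox and Timp1 rose by 0.90 ± 0.25 (adjusted p = 0.0377, call lost in 6 of 16 alternatives) and by 0.85 ± 0.24 (adjusted p = 0.0427, call lost in 8 of 16 alternatives), and with an array left out in turn 1 or 2 of the list were called higher.

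In the endothelial and angiogenic list 4 of 37 genes fell and 0 rose (limma; unadjusted, 14 and 1), with a median of -0.36. Icam2, an adhesion molecule of vessels, had 700.2, 727 and 837 in obese rats, against 1442, 1110.3 and 987 in lean rats, a change of -0.62 ± 0.16 (adjusted p = 0.0246, call lost in 5 of 16 alternatives). Vcam1 and Egfl7 fell by 0.57 ± 0.15 (adjusted p = 0.035, call lost in 8 of 16 alternatives) and by 0.55 ± 0.13 (adjusted p = 0.0172, call lost in 4 of 16 alternatives), and a second Egfl7 probe set was at 0.08 and not called. Pecam1, which defines endothelium, was at 612, 469.5 and 454 in obese rats, against 752, 909.6 and 824 in lean rats, a change of -0.68 ± 0.20 (adjusted p = 0.0502), just over the threshold of 0.05 and not called. Summed signals of 5 endothelial markers were 3972 to 4352 on obese arrays and 5207 to 6627 on lean arrays, and lean replicate 2 had the highest Vwf, 1323. Without lean replicate 2 or without obese replicate 2, 0 of the list were called lower. The smooth muscle and pericyte list, median -0.37, had 0 of 15 called in either direction by limma (unadjusted, 1 higher and 3 lower).

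Markers of mesothelium, neutrophils, liver and blood differed between arrays. Wt1, a transcription factor of the mesothelium, had 288, 185 and 248 in obese rats, against 494, 352 and 688 in lean rats, a change of -1.0 ± 0.23 (adjusted p = 0.0143, call lost in 2 of 15 alternatives). Msln, mesothelin, was at 1590.3, 1482 and 1039 in obese rats, against 2318, 1729 and 3802 in lean rats and was not called. Krt19, a keratin of mesothelial cells, varied within obese tissue, at 1716, 822 and 171 in obese rats, against 358, 273 and 682 in lean rats. It was higher on average in obese tissue, by 0.61 ± 0.71, as were the keratins Krt8 and Krt18, by 0.50 ± 0.63 and 1.18 ± 0.74. In these keratins the groups overlapped and none was called, so the mesothelial markers did not move in 1 direction. The neutrophil transcript S100a9 was below the level tested on average, at 8.8, 6 and 53.2 in obese rats, against 575, 151 and 258 in lean rats, without overlap between the groups, and S100a8 was dim in both. Alb, the plasma protein albumin made chiefly by liver, fell by 2.16 ± 0.37 (adjusted p = 0.00151), with 188, 350.1 and 289.6 in obese rats, against 1909, 1316 and 809 in lean rats. The other hepatocyte transcripts were not called or too dim to be tested. Serpina1, the brightest of these, had 189.7, 194 and 165 in obese rats and 228, 166 and 194.5 in lean rats. Cyp2e1 had 202, 185 and 97.8 in obese rats and 85.2, 62.9 and 121.5 in lean rats. Apoa1 was at 6.4, 7.7 and 7.2 in obese rats and 14.6, 4.7 and 19.3 in lean rats, and Ahsg at 53.7, 97 and 85.6 in obese rats and 72.4, 53.8 and 75.2 in lean rats. Erythroid Alas2 was at 1304, 1568 and 2270.4 in obese rats, against 2648, 3252 and 4422 in lean rats and was not called.

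Transporters and amino acid genes held several of the largest changes, with 2 higher and 2 lower of 39 amino acid and creatine genes, and 2 higher and 3 lower of 32 ion and water transport genes. Gatm, which makes the precursor of creatine, had 1184, 1357 and 1611 in obese rats, against 269.6, 226 and 258 in lean rats, a change of 2.36 ± 0.23 (adjusted p = 6.65e-06). Slc7a10, a transporter of small neutral amino acids, was at 1044, 1119 and 1393 in obese rats, against 237, 286 and 142 in lean rats, a change of 2.36 ± 0.32 (adjusted p = 0.000224). Slc1a3, a glutamate transporter, had 552, 604 and 529 in obese rats, against 2666, 2098 and 2053 in lean rats. It fell by 1.97 ± 0.20 (adjusted p = 8.47e-06), one further probe set fell by 1.68 and another was at 0.36 and not called. Slc1a5, a glutamine transporter, fell by 0.77 ± 0.15 (adjusted p = 0.00503). Atp1b1, a subunit of the sodium pump, was at 3905, 3064 and 2409 in obese rats, against 621, 515 and 806 in lean rats, a change of 2.23 ± 0.48 (adjusted p = 0.00918), and its second probe set rose by 2.18. The bicarbonate transporter Slc4a4 fell by 1.26 ± 0.22 (adjusted p = 0.00217), and Car2, a carbonic anhydrase, fell by 1.03 ± 0.28 (adjusted p = 0.0318, call lost in 5 of 16 alternatives), while its second probe set was at -0.47 and not called.

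Cell cycle genes included 7 of 33 that rose and 2 that fell, with a median of 0.19. When only probe sets above the 60th percentile were tested, 2 rose, but that filter leaves dimmer members untested. Cks2, a partner of cyclin-dependent kinases, had 326, 321 and 414 in obese rats, against 90.1, 85 and 118 in lean rats, a change of 1.67 ± 0.28 (adjusted p = 0.00137). Pttg1, securin, was at 521, 488 and 516 in obese rats, against 205, 102 and 228 in lean rats, a change of 1.48 ± 0.23 (adjusted p = 0.000739). Cdk1 and Ccnb2, the kinase and a cyclin of mitosis, rose by 1.09 ± 0.23 (adjusted p = 0.00827) and by 1.0 ± 0.18 (adjusted p = 0.00199). Cks2, Pttg1, Cdk1 and Ccnb2 kept their calls in each of the 15 alternatives that tested them. Cdkn1a, the inhibitor p21, was among those that rose, at 636, 618 and 816 in obese rats, against 104, 345 and 377 in lean rats, a change of 1.43 ± 0.30 (adjusted p = 0.00741). Its dimmer probe set, the one among the largest rises in the plot of signals, was at 185.3, 246.7 and 217.7 in obese rats, against 59.5, 24.3 and 44.1 in lean rats, a change of 1.95 ± 0.21 (adjusted p = 2.56e-05). The phosphatase Cdc25b, which activates these kinases, had 312, 409.8 and 513 in obese rats, against 804, 847 and 1283 in lean rats and fell by 1.20 ± 0.22 (adjusted p = 0.00228).

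Among stress and hormone response genes, 2 of 21 heat shock proteins rose, Cryab, as given above, and Hspb7, by 0.73 ± 0.20 (adjusted p = 0.035, call lost in 7 of 16 alternatives). Of 45 oxidative stress genes 4 rose, 2 without obese replicate 3 or without lean replicate 3, and 0 fell by limma in either list (unadjusted, 3 and 5 lower). Srxn1, which repairs oxidised peroxiredoxins, was at 501, 463 and 446 in obese rats, against 215, 249.9 and 235 in lean rats and rose by 0.95 ± 0.17 (adjusted p = 0.00217). Hmox1, haem oxygenase, rose by 0.73 ± 0.16 (adjusted p = 0.00867). In the endoplasmic reticulum list 1 of 36 rose and 2 fell, and the faller with the largest change was Xbp1, a regulator of secretory capacity. Xbp1 had 2686, 2309 and 2212 in obese rats, against 7752, 4811 and 4118 in lean rats, a change of -1.16 ± 0.18 (adjusted p = 0.000556). Klf15, a glucocorticoid-induced factor of amino acid and lipid metabolism, was at 482, 362 and 463 in obese rats, against 849, 1137 and 958 in lean rats and fell by 1.14 ± 0.19 (adjusted p = 0.00135). Igf1 and Igfbp5 of the growth hormone axis fell by 0.55 ± 0.16 (adjusted p = 0.0455, call lost in 9 of 16 alternatives) and by 0.71 ± 0.14 (adjusted p = 0.00524). A second Igf1 probe set was also called lower, at -0.60 ± 0.14 (limma adjusted p = 0.0177), while a second Igfbp5 probe set was at -0.02 and not called.

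Clock and immediate early genes had medians of -0.35 and -0.47 but 1 and 0 calls of 15 and 21 genes by limma (unadjusted, 3 and 4 lower and none higher). Per2 fell by 0.95 ± 0.24 (adjusted p = 0.0246, call lost in 4 of 16 alternatives). Dbp, an output of the clock, was at 667, 414 and 401 in obese rats, against 795, 1371 and 897 in lean rats, a change of -1.02 ± 0.31 (adjusted p = 0.0628) that was not called. Egr1 had 2272, 2319 and 2138 in obese rats, against 2846, 6608 and 3494 in lean rats, and lean replicate 2 was the brightest. Times of tissue collection are not given in the labels. Of other pathways with called genes, Tcf7l2, a transcription factor of the Wnt pathway, had 574, 488 and 606 in obese rats, against 1433, 1054 and 1156 in lean rats, a change of -1.09 ± 0.17 (adjusted p = 0.000525), and it was 1 of 3 of 39 genes of the Wnt, BMP and activin list that fell, with Frzb and Acvr1c; 0 rose (unadjusted, 2). In complement and coagulation 1 of 30 rose and 4 fell. F3, tissue factor, was at 1129, 1096 and 1002 in obese rats, against 2339, 2515 and 2260.2 in lean rats, a change of -1.13 ± 0.11 (adjusted p = 6.04e-06), one of the least variable falls, and Clu, clusterin, fell by 0.95 ± 0.19 (adjusted p = 0.00531). Of the leptin receptor Lepr itself no probe set was bright enough to be tested, and 1 of its probe sets was at 98.9, 102 and 101 in obese rats, against 77.7, 175 and 129 in lean rats.

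The comparison with liver and muscle of the same kinds of rat asked whether the obese minus lean change differed between tissues. In a joint model of all 54 arrays, 90 of 9519 probe sets (0.945%) had an obese minus lean change that differed among the tissues (limma F-test). Of the 573 called in adipose tissue, 48 were among these, 24 higher and 24 lower, and 10 of them differed from liver and from muscle alike. The second Frzb probe set changed by -2.35 in adipose tissue, against -0.24 in liver and -0.31 in muscle, and the differences were -2.11 and -2.04 (adjusted p = 0.000232 and 0.00328). Gatm changed by 2.36 in adipose tissue against -0.67 in liver and 0.30 in muscle, with differences of 3.03 and 2.07 (adjusted p = 0.000115 and 0.0365). Cela1 changed by 3.47 in adipose tissue, against -1.46 in liver and -0.30 in muscle, where it was dim.

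Cyp51 moved in opposite directions in adipose tissue and liver. Its mean signals were 932 in obese and 339 in lean adipose tissue, and 1793 in obese and 3796 in lean liver (SDs 220.1, 74.5, 309 and 709.7, n = 3 each). The difference between those changes was 2.48 on the log2 scale (limma adjusted p = 1.01e-05), while that from muscle was not called. Gpnmb, at 3.17 in adipose tissue, differed from liver (-0.11) but not by the test from muscle, where it rose by 1.60 (adjusted p = 0.0448). In Ptprs, Car3 and Acsl5 the larger change was in liver. The changes of the probe sets compared were -0.45, -0.10 and 0.05 in adipose tissue, none of them called, against 2.76, -3.76 and 1.17 in liver. A second Ptprs probe set was called lower in obese adipose tissue, at -0.54 ± 0.16 (adjusted p = 0.0492), just under the threshold.

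**Figure D5:**
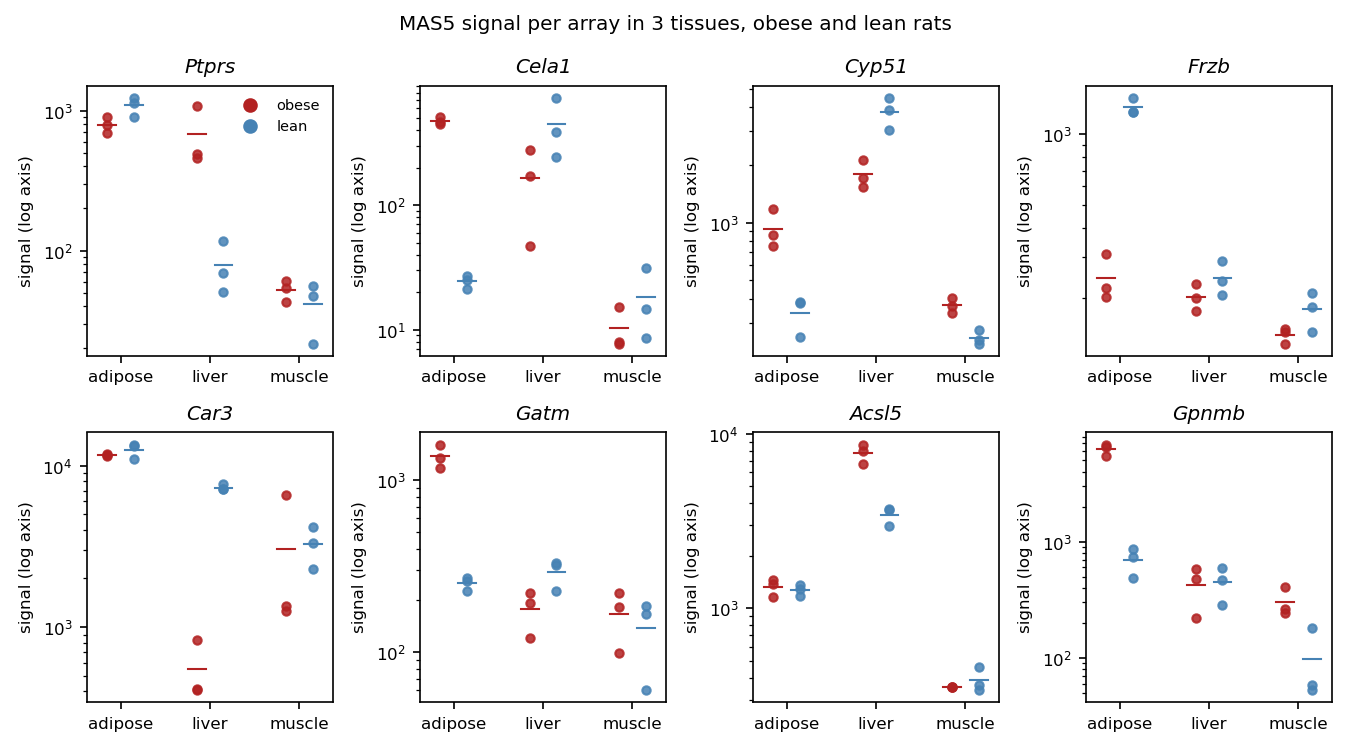
MAS5 signal on each array, on a log axis, for obese (red, left) and lean (blue, right) rats in each of the 3 tissues, for the 8 genes with the smallest F-test p-values for a tissue difference, with short bars at the means. Frzb, Gatm and Cela1 separate the groups in adipose tissue and not in muscle, and Ptprs, Car3 and Acsl5 separate them in liver.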

How the data were processed

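The deposited values were linear intensities from Affymetrix Rat Expression 230A arrays, MAS5 signals computed by the authors, per the submitters' processing notes, which give no version. Per the labels' protocols, each array held RNA pooled from 2 rats. The deposited arrays were scaled alike (mean 500.1 after trimming 2% at each end), and no further scaling was applied. Of the 15866 probe sets besides 57 controls, 12783 had 1 gene symbol, 312 several and 2771 none. Signals were used as log2(signal + 20), and the 9519 probe sets brighter on average than the 40th percentile over adipose arrays were tested.

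A linear model of the 18 adipose arrays, with 12 residual degrees of freedom, was fitted by limma (version 3.58.1, under R 4.3.3), with variances moderated along a trend in level. Benjamini-Hochberg adjustment ran over all tested probe sets, and called means an adjusted p under 0.05. Tissue differences came from a joint fit of all 54 arrays. Each listed gene was represented by its probe set with the highest mean. Lists and named genes were chosen with earlier results of these data known. Named genes were the 15 largest called rises and 15 largest called falls with 1 symbol and no overlap, up to 6 called members of each list by adjusted p, Lep, Lepr and Pparg, and the 8 smallest tissue F-test p-values. Genes named as not called, and Lipa, Cdk1, Ctsh, Mx1, Oas1a, Parp14, Rsad2, Usp18 and Wt1, were picked with their values in view (chosen after seeing the data).

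The settings varied were the value added before the log (5 or 80), the filter (none, or the 60th percentile), the scaling (quantile or median), the variance trend, weights on arrays, a block for replicate number, a fit of only the 6 arrays compared, averaged probe sets for lists, and leaving out each array. Same-numbered obese and lean arrays deviated from their group means with correlations of 0.144, 0.058 and -0.077, so the numbers were not used as pairs. On simulated data with 200 changed among 9519 probe sets, the fit recovered 85% of changes of 1 and 99% of changes of 2 (log2), and 3.16% of calls were false. The simulated noise was independent between arrays and every planted change was 1 or 2 in size. These rates therefore need not hold for the real calls, most of which are smaller changes. Promoter sequences are RefSeq's for GRCr8.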

Additional observations from a re-analysis of the deposited data

Results flagged for a closer look

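In 8 genes the obese minus lean change differed between adipose tissue and another tissue, by limma's test of that difference in the joint fit. Against liver, the adipose change was higher by 4.93 on the log2 scale for Cela1, by 3.66 for Car3, by 3.29 for Gpnmb, by 3.03 for Gatm and by 2.48 for Cyp51. The difference from liver was -3.21 for Ptprs, -2.11 for Frzb and -1.12 for Acsl5. Against muscle, the difference passed the threshold in 3 of the 8, at 3.77 for Cela1, -2.04 for Frzb and 2.07 for Gatm. The probe sets of Ptprs, Car3 and Acsl5 in this comparison were not called in adipose tissue itself (adjusted p = 0.206, 0.773 and 0.873), although a second Ptprs probe set was called lower there, at -0.54 (adjusted p = 0.0492). Each of these 8 genes was named for the size of its test, so the values describe the most extreme of 9519.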

How the results depend on the processing

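The count of 573 called probe sets was moved most by array weights, which gave 1106, with 557 higher and 549 lower. With each array left out in turn it was 319 to 433, with 172 to 230 higher and 147 to 203 lower; the lowest count came without obese replicate 3, and with one array fewer the fit has less power by construction. The other settings gave 505 to 712. The numbers of same-numbered arrays did not pair them, and with the replicate block 587 were called, 528 of them shared with the 573. The tissue F-test gave 51 to 64 calls with an adipose array left out, against 90, and 93 with the replicate block. Some of the counts over gene lists that moved by over 1.5 times when an array was left out are given beside the lists. Not given there, the 2 citrate cycle and respiratory chain falls became 0 without obese replicate 3 or without lean replicate 3. The 2 falls in triglyceride synthesis became 0 without obese replicate 2 or without lean replicate 1. Rises in triglyceride synthesis, fatty acid oxidation and ion transport, and droplet gene falls, each went from 2 to as few as 1. Other small counts moved as well. Without a filter 6 interferon genes fell (10 as reported) and 5 cytoskeleton genes rose (9), array weights gave 8 cholesterol genes that rose (5) and 7 endothelial genes that fell (4), averaging probe sets gave 8 cholesterol genes that rose, and median centring gave 2 endothelial genes and 1 matrix gene that fell (4 and 3). Of the 147 called probe sets tracked by name, 78 kept the call under every alternative and 69 lost it under at least 1, and in none did the direction turn. Leaving out any of several arrays ended the calls of Pik3r1, Hrh3 and Npy, whose adjusted p reached 0.118, 0.0942 and 0.153. Some genes reported as not called were called in some of the 16 alternatives, among them Pecam1 in 6, Dbp in 5, Irf7 in 4, and Alas2 and Fdft1 in 3 each. Among genes not called, the sign turned without obese replicate 1 in Fabp4 (-0.081) and Krt19 (-0.090), without obese replicate 2 in Acsl5 (-0.013), and without lean replicate 3 in Fabp4 (-0.031) and Ccl2 (-0.015). Over the left-out arrays the highest values of these genes were 0.22 for Fabp4, 1.5 for Krt19, 0.15 for Acsl5 and 0.77 for Ccl2. The causes were not tested. The 3 pools per group limit what changes under 1 on the log2 scale could be called, and signals near 20 carry little information on fold.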

Other observations

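Smaller lists with called genes were left out of the account above. Of 7 tested genes associated with brown fat 3 rose and 0 fell by limma (unadjusted, 3 and 0; 1 higher without obese replicate 2 or without obese replicate 3): Cidea, Ucp3 and Fabp3, a fatty acid carrier of heart and brown fat. Fabp3 had 231, 402 and 583 in obese rats, against 88.5, 219 and 221 in lean rats, a log2 change of 1.12 ± 0.28 (adjusted p = 0.0245, call lost in 5 of 16 alternatives). Cidea is also a droplet protein of white adipocytes. In fatty acid uptake and activation 3 of 18 genes rose and 0 fell (limma; unadjusted, 3 and 1; 0 higher without obese replicate 2, obese replicate 3 or lean replicate 1), namely Fabp3, Fabp5 at 0.71 ± 0.18 (adjusted p = 0.0239, call lost in 5 of 16 alternatives) and Dbi, which binds acyl-CoA, at 0.39 ± 0.11 (adjusted p = 0.0483, call lost in 10 of 16 alternatives). In glycogen metabolism 1 of 12 rose, Ugp2, which makes UDP-glucose, at 0.65 ± 0.18 (adjusted p = 0.033, call lost in 8 of 16 alternatives). The peroxisomal enzyme Ehhadh was 1 of 18 in its list and fell by 0.72 ± 0.17 (adjusted p = 0.0178, call lost in 5 of 16 alternatives). Shares called in the glycogen and peroxisomal lists were near that of all probe sets. Bdh1, of the fatty acid oxidation list, converts ketone bodies. It was dim in both groups, at 81.1, 41.7 and 92.5 in obese rats, against 20.2, 21.1 and 26.4 in lean rats. The rise was 1.06 ± 0.21 (adjusted p = 0.00504, call lost in 1 of 15 alternatives).

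Among 27 genes of glucocorticoid response and steroid metabolism 3 rose and 1 fell, and 1 to 4 rose with an array left out in turn. Star, the protein that carries cholesterol into mitochondria for steroid synthesis, had 959, 1019 and 1297 in obese rats, against 578, 573 and 229 in lean rats. Its change was 1.31 ± 0.38 (adjusted p = 0.0499, call lost in 11 of 16 alternatives), and its second probe set was at 1.13 and not called. In the hypoxia list 2 of 28 rose and 1 fell, all of them named above. Of 29 genes of xenobiotic and retinoid metabolism 2 rose, Cyp4b1 and Mgll, a share near that of all probe sets. In the angiotensin and natriuretic peptide list 1 of 10 was called, Agt, and in the list of genes that respond to leptin or insulin through JAK and STAT proteins 1 of 13, Lep itself. Of 8 tested mast cell and neutrophil genes 0 were called by limma, and 3 were lower at an unadjusted p under 0.05.

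Lcn2, a lipid-binding protein of inflamed tissue and of epithelia, varied most within obese tissue, at 2783, 1273 and 254 in obese rats, against 352, 308 and 391 in lean rats, and Krt19 followed the same order over the obese arrays. Pla2g2a, a secreted phospholipase, had 1986, 1623 and 1386 in obese rats, against 3932, 3719.6 and 5543 in lean rats without overlap between the groups and was not called at -1.38 ± 0.56 (adjusted p = 0.159). The letters CACGTG, an E-box, searched on both strands of 250 bases before the start, were in 7 of 34 lysosome list genes with a promoter sequence (20.6%) and in 5.59% of all promoters. The longer core TCACGTGA, which contains those letters, was in 3 of the 34 (8.82%) and in 0.657% of all. Here too a list gene was counted if any of its promoter sequences matched, while the share of all is per promoter. Of the genes called in this list, Plin2 alone held an E-box, and 0 held the longer core.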
